A study of Homo sapiens with 7 samples.

Results

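The loci described here are those of long noncoding RNAs, microRNAs and small nucleolar RNAs, among chromatin regions whose accessibility differed between Kasumi-1 cells with PHF19 knockdown and control cells. A region belonged to them when the symbol of its nearest gene, in the authors' pooled lists of increased and decreased regions, began with LINC and a digit, MIR and a digit, MIRLET7 or SNOR, or ended in AS or IT with a digit after a hyphen. The rule reads only gene names, and it took 712 of the 8815 listed regions (8.08%), which lay nearest to 474 noncoding genes. They comprised 262 regions at 161 LINC loci, 223 at 162 microRNA loci, 12 at 11 small nucleolar RNA loci and 215 at 140 antisense or intronic transcript loci. The microRNA regions divided into 208 named for a hairpin and 15 named for a host gene, the long transcript from which hairpins are cut.

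The assay was ATAC-seq, which reads out open chromatin through a transposase that cuts accessible DNA and attaches adapters. Kasumi-1 is a human cell line derived from acute myeloid leukaemia, with the RUNX1-RUNX1T1 fusion. The PHF19 knockdown group had 3 libraries from cells transduced with lentiviral shRNA against PHF19, and the scrambled control group had 4 libraries from cells given a scrambled shRNA. Both groups were selected with puromycin at 2 µg/ml, starting at 48 hours and lasting 24 hours or more, and each library started from 10000 cells. Whether libraries within a group were grown separately is not in the labels, and the spread that the authors' p-values measure may thus be technical. The lists hold the authors' mean of each group and no value per library, and they hold no RNA measurement, so neither the loss of PHF19 nor the cell type could be checked in them.

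PHF19 is a Polycomb-like protein that binds methylated histone H3 and helps recruit Polycomb repressive complex 2 (PRC2), which silences genes by methylating that histone. Long noncoding RNAs are transcripts that do not encode protein, some of which bind chromatin regulators. MicroRNAs are cut from hairpins in longer transcripts and repress messenger RNAs that match their seed, the bases from position 2 to position 8. Antisense RNAs are read from the strand opposite a partner gene and often start at a promoter that the pair shares. Small nucleolar RNAs guide chemical modification of ribosomal and other RNAs and mostly lie in introns of host genes.

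The mature microRNAs at the centre of the microRNA results are given first, because shared seeds connect loci on different chromosomes. The sequences are from RefSeq (GRCh38.p14), written 5′ to 3′ with the seed in capitals, and 132 of the 153 hairpin loci had a mature sequence there. MIR17HG makes the miR-17-92 cluster, of which miR-17 and miR-20a share a seed with miR-106a, the product of MIR106A on chromosome X.
hsa-miR-17-5p: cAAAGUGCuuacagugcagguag
hsa-miR-20a-5p: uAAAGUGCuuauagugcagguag
hsa-miR-106a-5p: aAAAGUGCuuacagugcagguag
hsa-miR-18a-5p: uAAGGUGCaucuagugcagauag
hsa-miR-19a-3p: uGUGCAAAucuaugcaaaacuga
hsa-miR-19b-3p: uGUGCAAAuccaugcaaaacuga
hsa-miR-92a-3p: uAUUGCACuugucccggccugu

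MIR99AHG on chromosome 21 carries miR-99a, let-7c and miR-125b-2. Its miR-99a shares a seed with miR-99b of chromosome 19, and let-7c shares one with let-7a and miR-4458.
hsa-miR-99a-5p: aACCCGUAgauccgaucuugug
hsa-miR-99b-5p: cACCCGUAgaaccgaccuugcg
hsa-let-7c-5p: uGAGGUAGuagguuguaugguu
hsa-let-7a-5p: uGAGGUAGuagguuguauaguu
hsa-miR-4458: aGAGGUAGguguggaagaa
hsa-miR-125b-5p: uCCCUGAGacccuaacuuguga

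The next sequences belong to blood microRNAs and to a pair of seeds held by loci of separate chromosomes, miR-181b with miR-4262 and miR-26a with miR-26b.
hsa-miR-155-5p: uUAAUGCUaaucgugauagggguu
hsa-miR-223-3p: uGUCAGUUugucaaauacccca
hsa-miR-148a-3p: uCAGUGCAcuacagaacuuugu
hsa-miR-181b-5p: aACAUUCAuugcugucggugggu
hsa-miR-4262: gACAUUCAgacuaccug
hsa-miR-26a-5p: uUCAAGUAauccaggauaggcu
hsa-miR-26b-5p: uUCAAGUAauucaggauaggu

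Nearly all of the noncoding regions were more accessible after PHF19 knockdown. Of the 712, 689 (96.8%) were in the increased list (exact Clopper-Pearson 95% interval 95.2 to 97.9%) and 23 in the decreased list. Among the other 8103 listed regions the increased share was 97.8% (97.5 to 98.1%). As background, the authors tested 52675 regions, of which 16.4% were listed as increased and 0.380% as decreased. The shares were 96.2% of LINC regions, 96.0% of microRNA regions, 98.1% of antisense or intronic regions and 12 of 12 small nucleolar RNA regions. Noncoding genes were the nearest gene of 7.998% of increased regions (7.43 to 8.59%) and of 11.5% of decreased regions (7.43 to 16.8%), and these intervals overlapped. How many of the tested regions lay nearest a noncoding gene is unknown, so the share of noncoding regions that changed cannot be given. The intervals cover counting error only, and no test between groups of regions was made, because regions are not replicates.

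The increased noncoding regions lay mostly away from gene starts. Promoters, within 3 kb of an annotated start, held 149 of the 689 (21.6%, interval 18.6 to 24.9%), against 52.6% (51.5 to 53.7%) of the increased regions of other genes. Introns held 32.5% of the noncoding regions and 19.4% of the others, and intergenic sequence 43.0% and 25.4%. The median distance to the start was 43.5 kb for noncoding regions and 1.20 kb for the others, and 33.2% and 14.7% lay more than 100 kb away. Seen from the annotation, noncoding genes were nearest to 3.45% of all increased promoters, 12.7% of increased introns and 12.8% of increased intergenic regions. The share was 16.4% among increased regions beyond 100 kb, where a nearest gene is only a label of position. For a microRNA hairpin the deposited start is that of the hairpin and not of its primary transcript, so a region at the transcript's own promoter can be listed as distal.

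The 4 classes lay differently. LINC loci had the fewest promoter regions, 31 of 252 (12.3%), with 62.3% of their regions intergenic and a median distance of 98.3 kb. For microRNA loci the promoter share was 20.1% and the median distance 39.8 kb, but host genes and hairpins differed, with 9 of 15 host gene regions (60%) and 17.1% of hairpin regions at a promoter. Antisense or intronic loci had the largest promoter share among the classes with more than 12 regions, 34.1%, and a median distance of 19.4 kb. Of the 12 regions at small nucleolar RNA loci, 3 were at promoters. No class other than the 15 regions of host genes reached the promoter share of other genes.

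**Figure D1:**
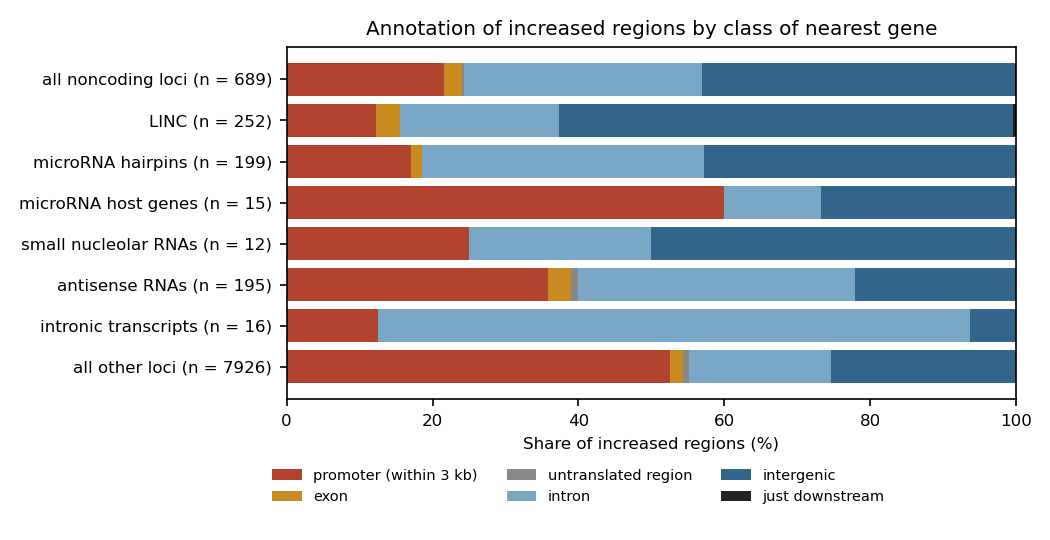
Stacked bars give the share of increased regions (x axis, percent) in each annotated feature for all noncoding loci, their 6 subclasses and all other loci, with the number of regions beside each name. Promoters held 21.6% of noncoding regions and 52.6% of other regions, and intergenic sequence held 62.3% of LINC regions.

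Noncoding regions had lower accessibility than other increased regions in both groups of cells, and a slightly larger fold. The authors' group mean, in log2 normalised reads, had a median of 4.19 in PHF19 knockdown and 2.64 in control for increased noncoding regions, which is 18.3 and 6.25 reads. For increased regions of other genes it was 4.85 in knockdown and 3.58 in control, or 28.8 and 12.0 reads. The median log2 fold, knockdown over control, was 1.02 for noncoding regions (95% interval of the median 1.001 to 1.03) and 0.96 for the others (0.96 to 0.97).

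Within one type of position the noncoding and the other regions lay closer together. At promoters the median fold was 0.92 (0.86 to 0.97) for noncoding and 0.89 (0.88 to 0.90) for other regions, and away from promoters 1.03 (1.02 to 1.04) and 1.02 (1.02 to 1.03). Noncoding promoters had a median of 40.3 reads in knockdown and 19.6 in control, and other promoters 48.1 and 23.0. Away from promoters, noncoding regions had 15.9 reads in knockdown and 5.20 in control, and other regions 16.8 and 5.45. When the other regions were weighted to the mix of features of the noncoding ones, a comparison chosen after seeing the data, their median fold was 1.002 and their median log2 means were 4.30 in knockdown and 2.79 in control. By class, the median log2 fold was 1.05 at LINC, 0.98 at microRNA, 0.998 at small nucleolar RNA and 1.003 at antisense or intronic loci. The largest class median at one type of position, among those of at least 12 regions, was 1.08 at the 157 intergenic LINC regions (1.04 to 1.13).

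**Figure D2:**
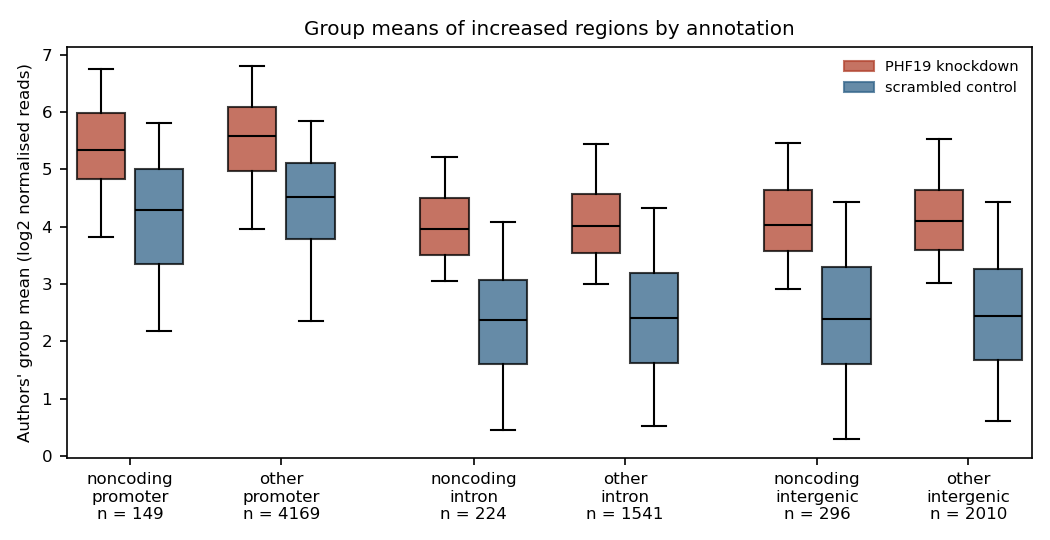
Boxes show the authors' group mean per increased region (y axis, log2 normalised reads) in PHF19 knockdown and scrambled control, for noncoding and other regions at promoters, introns and intergenic sequence. Lines in the boxes are medians, boxes span the quartiles and whiskers the 5th to 95th percentiles; promoter boxes sit above the others in both groups, and noncoding and other regions lie close together within each feature.

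Fewer reads stood behind the noncoding regions. The mean over all libraries was under 10 reads in 42.1% of increased noncoding regions and in 25.6% of the others. Of these same sets, 38.9% and 46.5% had an FDR no higher than 0.01, and 53.8% and 42.5% a log2 fold of 1 or more. The control mean lay at the floor of the deposited values, 1 read, in 14 increased noncoding regions, none of them at a promoter. Whether that floor enters the authors' folds is unknown, because the tool behind the folds is not given.

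**Figure D3:**
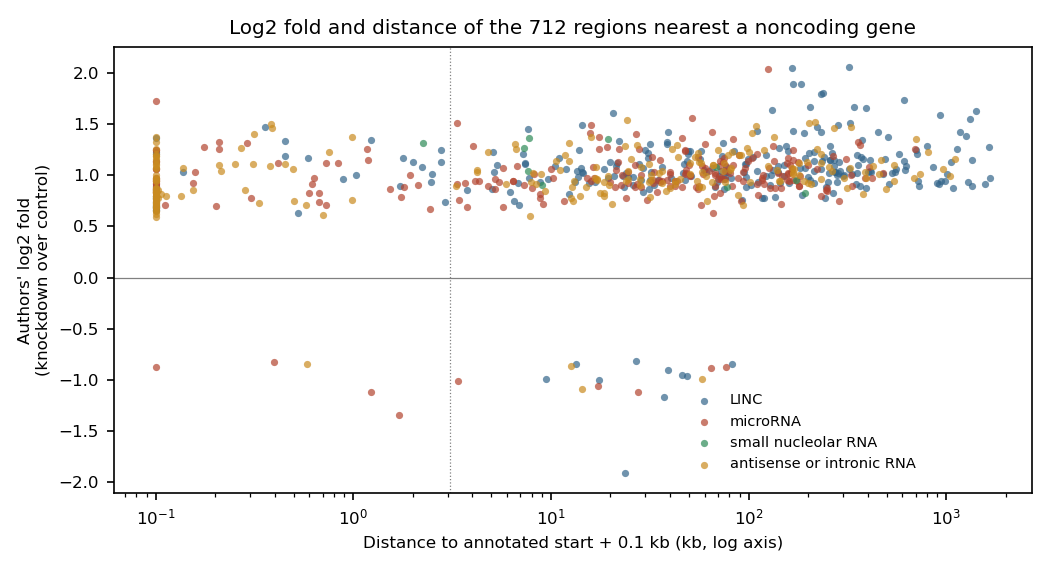
Each point is 1 of the 712 noncoding regions, with its distance to the annotated start (x axis, kb plus 0.1, log axis) and the authors' log2 fold, knockdown over control (y axis), coloured by class. The dotted line marks 3 kb; the 45 increased regions beyond 500 kb are mostly LINC, and the lowest point is the region near LINC00926.

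LINC loci held the 2 largest increases among the noncoding loci. A region 323 kb from LINC00308, on chromosome 21 at 23793705 to 23794105, averaged 29.7 reads in knockdown and 4.30 in control in the authors' deposited table, with a log2 fold of 2.05 (FDR 1.89e-06). It ranked 8 among the 8615 increased regions by fold. The next was an intronic region of LINC01692, also on chromosome 21, with 18.9 reads in knockdown, 1.60 in control and a log2 fold of 2.05. LINC00879 followed with 19.4 and 2.62 reads (1.89), LINC02740 with 15.1 reads in knockdown and a control mean at the floor (1.89), LINC01994 with 18.2 and 2.47 reads (1.80) and LINC00692 with 17.4 and 2.11 reads (1.79). Each of these lay more than 100 kb from the gene start, and their control means were all under 5 reads. Noncoding regions made up 3 of the first 20 and 9 of the first 100 increased regions by fold, beside 7.998% of all 8615.

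At LINC promoters the means were higher. The promoter of LINC01465, on chromosome 12, averaged 63.2 reads in knockdown and 19.1 in control, with a log2 fold of 1.47 and an FDR of 4.19e-06 in the authors' deposited table. LINC02981 had 28.9 and 8.56 reads (1.36), LINC00359 had 19.8 and 5.27 (1.34) and LINC01132 had 23.6 and 6.70 (1.33). Of the 45 increased noncoding regions more than 500 kb from a start, 35 were at LINC loci. Over all loci, 257 increased regions lay that far.

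Some noncoding genes were the nearest gene of many changed regions spread over long stretches of chromosome. Of the 474 loci, 333 had 1 region, 118 had 2 or 3 and 23 had 4 or more. The same counts for the other loci are not given here. These 23 noncoding loci held 109 regions, all increased, as were 97.7% of all listed regions. LINC00290 on chromosome 4 had the most, 12 regions over 1800 kb, all intergenic and between 369 and 1322 kb from its start. Their log2 folds ran from 0.93 to 1.55, and their means from 7.09 to 36.9 reads in knockdown and from 1.37 to 16.7 in control. LINC02111 on chromosome 5 had 7 regions with folds from 0.88 to 1.73, and LINC00923 on chromosome 15 had 6 with folds from 0.91 to 1.66. MIR593 on chromosome 7 also had 6 regions (0.88 to 1.40), and LINC00971 on chromosome 3 had 5 (0.90 to 1.63). NR2F1-AS1, antisense to the gene of a nuclear receptor, had 5 regions (0.85 to 1.16), of which 1 was at its promoter. The other 17 loci had 4 regions each. They were LINC00578, LINC00692, LINC00861, LINC00879, LINC00911, LINC01098, LINC01242, LINC01619, LINC02458, MIR4262, MIR5091, ARRDC3-AS1, ATP2B1-AS1, BHLHE40-AS1, GRM5-AS1, IGSF11-AS1 and TFAP2A-AS1. Among all 23 loci, 19 had no promoter region.

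**Figure D4:**
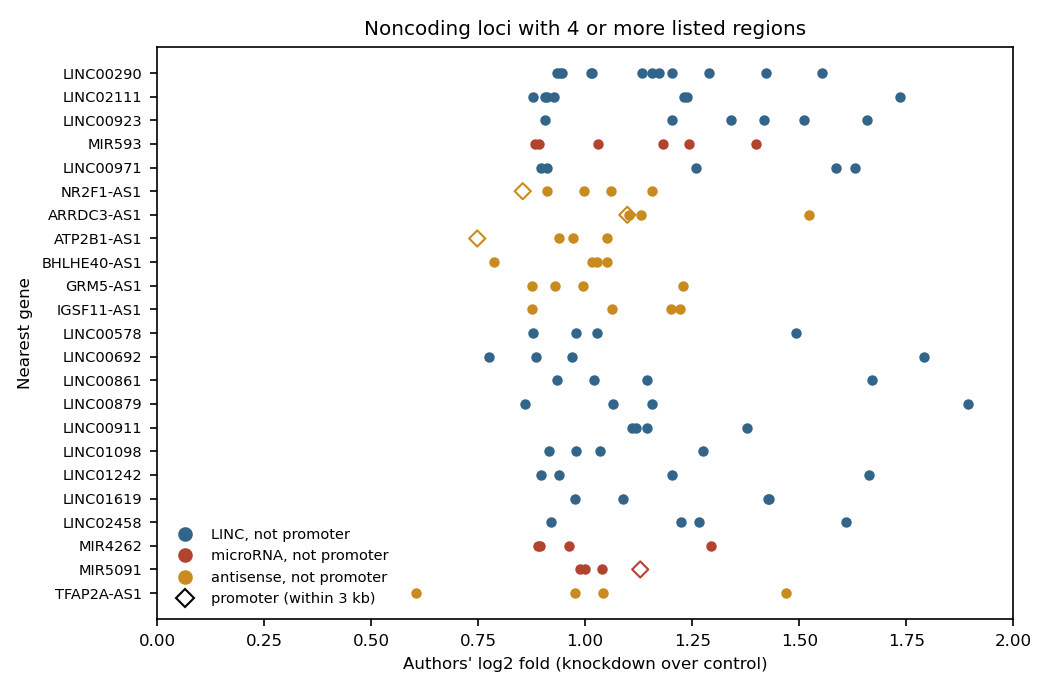
Each row is 1 of the 23 noncoding loci with 4 or more listed regions, most regions at the top, and each point is the authors' log2 fold, knockdown over control, of 1 region (x axis). Open diamonds are promoter regions, found at 4 loci; every point lies above 0.5, and LINC00290 has 12 points between 0.93 and 1.55.

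A list of 76 microRNA genes and host genes with known roles in blood cells or leukaemia was looked up. It was chosen with earlier results of these data known. It had 16 loci among the listed regions (21.1%, exact interval 12.5 to 31.9%). Hosts and hairpins of 1 transcript, such as MIR155HG and MIR155, were counted separately, and the interval treats them as independent. By the same count, 8.15% of the 2000 microRNA and host genes in the RefSeq table and 25.9% of protein-coding genes had a listed region, and no test between these shares was made. The 27 regions of the 16 loci were all in the increased list, which held 97.7% of all listed regions, and 9 of them were at promoters. Their median log2 fold over all 27 was 0.96, beside 0.97 over all 8615 increased regions. MIR155HG, the host of miR-155, which acts in lymphoid and inflammatory cells, had 3 regions. The region just upstream of its start averaged 23.1 reads in knockdown and 6.61 in control (log2 fold 1.32, FDR 0.00133), and the next, over the start itself, 28.5 and 9.57 reads (1.25). Another region, 59.9 kb upstream, had 10.1 and 2.72 reads (1.07). The hairpin gene MIR155, inside the same transcript, had 2 further regions (1.06 and 0.94), so 5 regions along this locus were higher in knockdown.

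MIR17HG, whose miR-17-92 products are printed above, had 2 promoter regions on chromosome 13. The region at its start, 91999615 to 92000015, averaged 61.8 reads in knockdown and 27.1 in control (log2 fold 1.03, FDR 0.000623). The region 1.07 kb downstream had 38.2 and 13.5 reads (1.25). Near MIR106A, whose product has the same seed as miR-17 and miR-20a, a region had 9.18 and 2.58 reads (0.97).

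MIR223, a granulocyte microRNA gene, had the largest increase of the list. The region 3.26 kb upstream of its hairpin averaged 21.5 reads in knockdown and 5.14 in control, with a log2 fold of 1.51 and an FDR of 0.00031 in the authors' deposited table. A second region 91.9 kb upstream had 28.5 and 14.8 reads (0.75).

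MIR99AHG had 29.0 reads in knockdown and 10.8 in control at its start (log2 fold 1.14) and 2 more regions at 0.92 and 0.88. MIR125B2, which lies in that host and makes miR-125b, had 8.94 and 2.61 reads (0.95). MIR23AHG, the host of miR-23a, miR-27a and miR-24-2, had a promoter region with 39.2 and 17.7 reads (0.97) and a region 5.65 kb upstream (1.07). MIR132 had 34.2 and 14.8 reads at its hairpin (0.94). MIR26A1, whose miR-26a is known to repress EZH2, the catalytic subunit of PRC2, had 2 regions at 0.89 and 0.88, and MIR29C had 1 at 0.96. The other listed loci were MIR128-2 with 3 regions from 0.89 to 1.06, MIR181A1HG (0.91), MIR181B1 (0.90), MIRLET7A1 (0.72) and MIR9-2 (0.69). MIRLET7A1 and MIR9-2 had the smallest folds of the list and the 2 highest control means of the list, 36.8 and 28.2 reads.

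**Figure D5:**
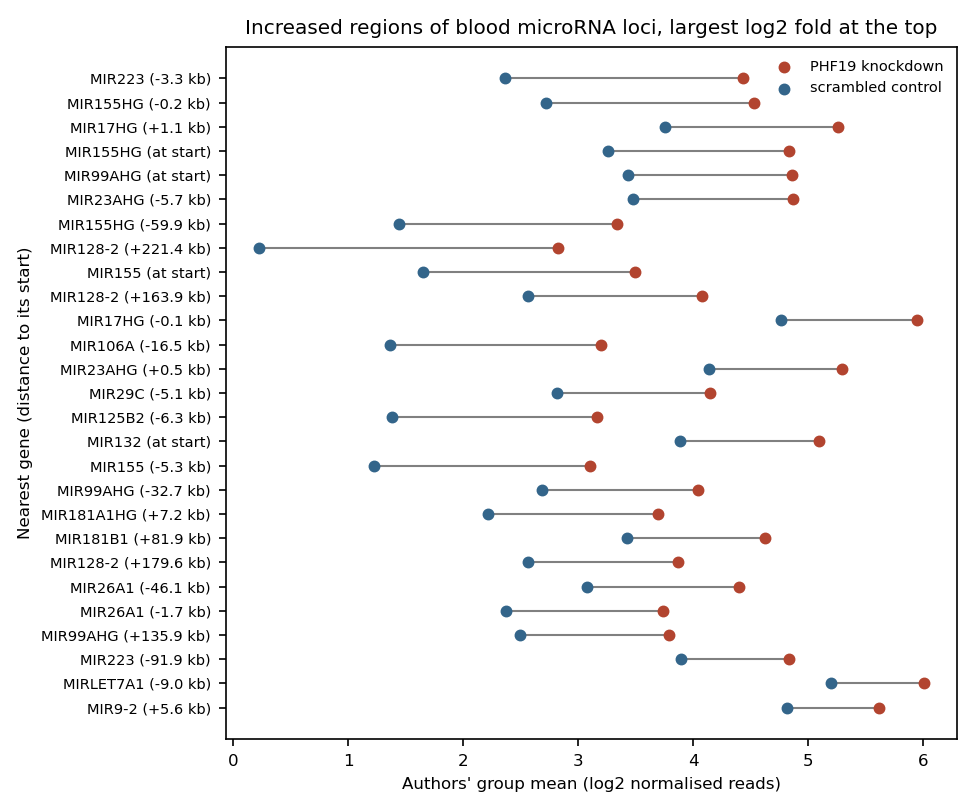
Each row is 1 of the 27 listed regions of the blood microRNA list, named by its nearest gene and distance to that start, with the authors' group mean in log2 normalised reads (x axis) for PHF19 knockdown and scrambled control. In each row the knockdown mean lies to the right of the control mean, and rows run from MIR223 (log2 fold 1.51) at the top to MIR9-2 (0.69).

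Among all microRNA loci the largest increase was at MIR4789, which lies in an intron of NAALADL2. Its region averaged 43.7 reads in knockdown and 8.07 in control, with a log2 fold of 2.04 and an FDR of 3.29e-08, rank 11 of all increased regions. At promoters, MIR4437 led with 34.8 reads in knockdown and 7.68 in control (1.72), followed by MIR3124 with 27.7 and 8.62 (1.33), the MIR155HG region given above and MIR3960 with 83.3 and 30.1 (1.27). Further large increases were at MIR653 in an intron of CALCR, the calcitonin receptor gene (1.56), at MIR4637 in an intron of ANKH with 93.7 and 29.9 reads (1.49) and near MIR1343 (1.42). MIR148A, outside the blood list and named after its values were seen, had 3 increased regions, at 1.38, 1.15 and 0.94. That at 1.15 was 1.09 kb upstream of its hairpin. The highest knockdown mean among host gene promoters named here was at MIR4458HG, with 143 reads against 69.2 in control (0.96).

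Shared seeds group microRNA loci by the messages they can match. Among hairpin loci with a sequence, 7 seeds were held by 2 loci each. For let-7a and miR-4458, the region near MIRLET7A1 had 64.2 reads in knockdown and 36.8 in control (0.72), and that near MIR4458 had 15.8 and 4.75 (1.18). For miR-26a and miR-26b, MIR26B had 42.5 and 24.2 reads (0.69), beside the 2 regions of MIR26A1. For miR-181b and miR-4262, MIR181B1 had 24.7 and 10.7 reads (0.90), and MIR4262 had 4 regions from 0.89 to 1.29. The regions of these pairs were all higher in knockdown. The pair MIR1275 and MIR4665 was split, with the region named for MIR1275 lower in knockdown and that for MIR4665 higher (0.74). The miR-99 seed was split too, since miR-99a comes from MIR99AHG, whose regions were higher in knockdown, and miR-99b from MIR99B, whose region was lower. The other shared seeds were at MIR548F2 and MIR548F4, MIR3125 and MIR3916, and MIR3122 and MIR3913-2, all higher in knockdown, with folds from 0.78 to 1.28.

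The promoter sequences of the hosts MIR155HG and MIR17HG and of KMT2E-AS1 are shown because changed regions of these genes lay at their starts. They are from RefSeq (GRCh38.p14), from 250 bases before to 50 bases after the start, on the strand of the gene, and their coordinates are not those of the deposited regions. Capitals mark matches, on either strand, to motifs of AP-1 (TGANTCA), E-box (CACGTG), RUNX (TGTGGT), ETS (CCGGAA) and GC box (GGGCGG).
MIR155HG (chr21:25561895-25562194, plus strand): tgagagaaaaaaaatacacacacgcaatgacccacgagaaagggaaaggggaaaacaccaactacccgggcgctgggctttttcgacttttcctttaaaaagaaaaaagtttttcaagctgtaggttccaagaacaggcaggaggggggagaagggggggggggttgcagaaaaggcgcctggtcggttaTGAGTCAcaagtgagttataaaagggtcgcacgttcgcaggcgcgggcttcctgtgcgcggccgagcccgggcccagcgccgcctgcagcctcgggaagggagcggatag
MIR17HG (chr13:91347437-91347736, plus strand): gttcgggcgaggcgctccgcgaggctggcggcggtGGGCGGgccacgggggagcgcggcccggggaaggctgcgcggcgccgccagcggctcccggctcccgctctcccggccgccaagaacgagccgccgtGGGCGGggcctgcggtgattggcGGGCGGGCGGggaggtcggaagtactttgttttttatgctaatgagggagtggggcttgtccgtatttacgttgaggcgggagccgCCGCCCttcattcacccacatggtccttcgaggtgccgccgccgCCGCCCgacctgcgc
KMT2E-AS1 (chr7:105014092-105014391, minus strand): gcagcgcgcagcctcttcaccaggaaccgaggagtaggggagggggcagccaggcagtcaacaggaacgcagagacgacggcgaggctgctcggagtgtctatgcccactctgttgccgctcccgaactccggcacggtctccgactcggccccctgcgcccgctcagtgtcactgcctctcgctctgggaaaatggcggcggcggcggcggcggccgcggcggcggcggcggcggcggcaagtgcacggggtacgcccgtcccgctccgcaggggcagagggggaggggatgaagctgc

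MIR155HG held 1 AP-1 match, MIR17HG held 6 GC box matches, of which 2 overlap, and KMT2E-AS1 held no match to any of the 5 motifs. Of 91 noncoding loci with an increased region within 1 kb of the start, hairpins left out, 75 had a promoter in the table, with 97 sequences. The GC box was found in 58.8% of these 97, in 67.3% of the 4391 promoters of other genes with an increased region within 1 kb and in 45.0% of all 35116 promoters. The ETS motif was found in 23.7%, 30.8% and 17.2%, the E-box in 8.25%, 10.2% and 7.26%, the RUNX motif in 11.3%, 10.3% and 13.1% and the AP-1 motif in 5.15%, 4.67% and 7.71% of the same 3 sets. The median GC content was 67.7% in the noncoding set, 65.3% in the other increased set and 58.7% over all promoters, and a match is a description of the letters only.

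Antisense or intronic loci had 211 increased and 4 decreased regions. KMT2E-AS1, which starts beside the trithorax-family gene KMT2E, had 3 increased promoter regions over 1.61 kb of chromosome 7. Their means were 35.4, 34.9 and 102 reads in knockdown, against 9.56, 10.9 and 35.1 in control, with log2 folds of 1.502, 1.37 and 1.37 in the authors' deposited table. EPHA5-AS1 (24.3 and 5.76 reads, 1.46) and EIF1B-AS1 (19.4 and 4.74 reads, 1.40) had the next promoter increases. Away from promoters, large increases were at IGF2BP2-AS1 in an intron of IGF2BP2, an RNA-binding protein gene (1.54), ARRDC3-AS1 (1.52), ARHGAP26-AS1 (1.48) and TFAP2A-AS1 (1.47).

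For a list of 30 genes or clusters of blood development, leukaemia and Polycomb regulation, antisense and intronic transcripts named for them were looked up. RefSeq held 20 such genes, of which 1 (5%), RUNX1-IT1, had a listed region, while 6.49% of all 2126 antisense and intronic genes there had one. RUNX1-IT1 is an intronic transcript of RUNX1, the blood transcription factor gene that is fused in this line. It had 3 regions, all inside RUNX1, with 54.1 reads in knockdown and 18.7 in control (1.31), 16.1 and 4.71 (1.22) and 8.26 and 1.10 (1.13). A region named for MIR802 also lay in a RUNX1 intron (10.5 and 2.09 reads, 1.26). RUNX1 was the nearest gene of 5 other increased regions, with log2 folds from 0.92 to 1.63. CDKN2B-AS1, also called ANRIL, an antisense RNA of the INK4 locus known to bind PRC2, was named after its values were seen. It had 2 increased promoter regions, with 29.2 reads in knockdown and 10.97 in control (1.11) and with 31.9 and 18.0 (0.69, FDR 0.0499, next to the threshold).

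The partner gene was listed as well for some of these loci, 131 antisense and 9 intronic, which were counted together. For 61 of the 140 antisense or intronic loci (43.6%, interval 35.2 to 52.2%) the gene named before the hyphen was itself the nearest gene of a listed region, while 25.9% of the 20052 protein-coding genes were. The share was 34.4% (22.9 to 47.3%) for the 64 loci with a promoter region, an interval that includes the share of protein-coding genes, and 51.3% (39.6 to 63.0%) for the 76 without one. For 15 of the 64 (23.4%) the partner's promoter was listed too, and the share of all protein-coding genes with a listed promoter is not given here. At EIF1B-AS1 the partner EIF1B had 75.9 reads in knockdown and 37.4 in control (0.92), beside 1.40 at the antisense start. GABPB1-IT1 had 36.8 and 12.1 reads (1.33) and GABPB1 28.3 and 13.8 (0.82). HMGN3-AS1 had 52.8 and 22.3 reads (1.07), and the HMGN3 promoter 80.3 and 39.6 (0.92). ATAC-seq carries no strand and each region is given to 1 gene, so regions between the starts of such a pair cannot be told apart by gene. The exception in direction was PROSER2-AS1, with an increased promoter (54.2 and 28.6 reads, 0.80), while a region 35.0 kb upstream of PROSER2 was decreased (1 and 5.64 reads, −0.87).

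Many noncoding regions lay within other genes. Of the 251 noncoding regions in an intron or exon, both directions together, 147 (58.6%) were annotated inside a different, protein-coding gene and 58 (23.1%) inside their own locus, while 77.5% of 1750 such regions of other genes were inside their own. For microRNA loci 70.1% and for antisense or intronic loci 77.1% were inside a different protein-coding gene, and for LINC loci 66.2% were inside their own. RUNX1 and SND1 each held 4 such regions, those in SND1 named for MIR593 and SND1-IT1, whose 3 regions had folds of 1.25, 1.19 and 1.08.

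The 12 regions at small nucleolar RNA loci were all increased, with log2 folds from 0.68 to 1.37. SNORA53 had 24.0 reads in knockdown and 6.84 in control (1.37), SNORA35, in an intron of the serotonin receptor gene HTR2C, 10.2 and 1.37 (1.35), SNORD93 51.8 and 18.0 (1.31) and SNORD50A 26.1 and 8.18 (1.27). The region named for SNORD54 lay in an intron of LYN, a kinase gene of blood cells, and had 8.94 and 2.04 reads (1.08). SNORA31 had 23.7 and 8.81 (1.04). At the promoters of SNORD104 and SNORA57 the means were among the highest of the class and the folds the smallest, with 130 and 74.8 reads (0.71) and 64.9 and 38.1 reads (0.68). Promoter here means within 3 kb of the start listed for the small nucleolar RNA, which need not be that of its host gene.

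Only 23 noncoding regions, at 22 loci, were less accessible after knockdown. They comprised 10 LINC, 9 microRNA and 4 antisense regions. Against 29.9% of other decreased regions, 5 of them (21.7%) lay at promoters. Their median log2 fold was −0.96 with medians of 3.24 reads in knockdown and 11.5 in control, while the other 177 decreased regions had −0.97, 2.35 and 10.5 reads. Only 2 of the 23 (8.70%) reached an FDR of 0.01, those at LINC00926 and MIR99B, against 14.1% of the other 177. The knockdown mean lay at the floor of 1 read in 5 of the 23 (21.7%) and in 24.9% of the other 177. The 5 were at LINC00485, LINC00964, MIR3664, MIR3675 and SHANK2-AS3.

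The region near LINC00926 had the largest decrease of all 200 decreased regions by fold. It lies on chromosome 15 at 57616100 to 57616858, 23.5 kb from the gene start, and averaged 10.6 reads in knockdown and 55.2 in control, with a log2 fold of −1.91 and an FDR of 9.38e-08 in the authors' deposited table. MIR99B followed among the noncoding loci, with 4.97 reads in knockdown and 19.4 in control 1.60 kb upstream of its hairpin (−1.34, FDR 0.00229). These 2 regions had higher control means than most decreased noncoding regions.

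Other decreases at LINC loci were at LINC00910 (1.31 and 9.68 reads, −1.16), LINC01270 (−0.997), LINC03040 with 2 regions (−0.99 and −0.96), LINC01699 (−0.95), LINC01993 (−0.90), LINC00964 (−0.85), LINC02913 (−0.84) and LINC00485 (−0.81). None of the 10 decreased LINC regions was at a promoter. Decreased microRNA loci were MIR4740 (−1.12), MIR1275 (3.66 and 13.2 reads, −1.11), MIR4681 (−1.05), MIR937 (−1.01), MIR4743 (−0.88), MIR3664 (−0.87), MIR5189 (13.1 and 28.7 reads, −0.87) and MIR3675 (−0.83). The region named for MIR1275 lay in an intron of the glutamate receptor gene GRM4, that of MIR4681 in GRK5 and that of MIR937 in SCRIB. Of the 9 microRNA regions 4 were within 3 kb of the hairpin, at MIR99B, MIR4740, MIR5189 and MIR3675. Antisense loci with a decrease included TRIM67-AS1 (−1.08), SHANK2-AS3 (−0.86) and TSPOAP1-AS1, at its promoter with 10.6 and 22.5 reads (−0.84).

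Regions in both directions occurred at 2 loci, among them LINC00910 on chromosome 17. It had a decreased region 37.3 kb and an increased region 20.9 kb from its start (19.4 reads in knockdown and 7.37 in control, 0.99).

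By chromosome, the most noncoding regions lay on chromosome 3, with 95, followed by chromosome 7 with 72 and chromosome 5 with 69. Relative to all listed regions of a chromosome, noncoding regions were most frequent on chromosome 21, with 41 of 175 (23.4%), and on chromosome 13, with 37 of 199 (18.6%). Chromosome 21 carries LINC00308, LINC01692, MIR155HG, MIR99AHG and RUNX1-IT1. None of its noncoding regions was decreased, and the same held for other chromosomes, among them chromosome 3 with 95 and chromosome 5 with 69. On chromosome 7, which had the most listed regions of the chromosomes, the noncoding share was 6.89%. Another listed region lay within 10 kb of 15.0% of noncoding and 21.7% of other regions.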

How the data were processed

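The authors listed regions that differed at an FDR of 0.05, and per the file headers each has log2 mean normalised reads over all libraries and per group, a log2 fold, a p-value and an FDR. The deposited distance is in base pairs from the annotated start, negative upstream. Per the submitters' processing notes, MACS2 2.2.6, Bowtie2 2.4.1, deepTools 1.5.12 and Picard 2.2.4 were used, without roles given. Not given in the sources used here are the tool behind the folds, the normalisation and any transposase shift, and library depth is unknown. In all 8815 regions the authors' fold was smaller in size than the difference between the deposited log2 means. The knockdown column was taken to be the one that was higher in all 8615 increased regions and carried a median weight of 0.429 (3 of 7 libraries) in the overall mean. The number of tested regions was obtained from each FDR, p-value and rank.

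Coordinates are as deposited, 1-based, and read as hg19, although the notes name hg38. RefSeq GRCh38.p14 supplied gene types, which all 712 regions matched by gene ID, and sequences. Reads are 2 to the power of the log2 mean. Shares have exact Clopper-Pearson 95% intervals and medians binomial order-statistic 95% intervals, tested on simulated data, with matplotlib 3.10.9, scipy 1.17.1, numpy 2.4.6, pandas 2.3.3 and Python 3.11.15. No p-value of a comparison between sets was computed. Named by rule were, per class, the 6 largest increases and 4 largest promoter increases, up to 10 decreases, loci with 4 or more regions or both directions, and listed loci of the blood lists. The members and lists were chosen with earlier results of these data known, and the sequence pairs by seed, the 3 promoters, MIR148A, MIR4458HG, MIR802, SND1-IT1, CDKN2B-AS1 and the partner pairs after the values were seen. Single values of 2 antisense loci that the rule names are not reported here.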

Additional observations from a re-analysis of the deposited data

How the results depend on the processing

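Of 44 values recomputed under 9 alternatives, 17 stayed within the interval of the reported value (counts, within 1.5 times) and 27 moved. The noncoding regions numbered 270 at an FDR of at most 0.01, 379 at a log2 fold of 1 or more in size, 406 at a mean of at least 10 reads and 474 with 1 region per locus. The increased share was 99.3% at the stricter FDR and 98.3% at 10 reads. The promoter share was 29.9% at the stricter FDR, 16.4% at the fold limit, 33.8% at 10 reads, 27.7% when noncoding was taken from RefSeq gene types and 25.4% with 1 region per locus. Other loci had 61.6%, 37.7% and 66.8% under the first 3 of these, above the noncoding share each time. The median log2 fold was 1.21 at the stricter FDR, 1.14 at the fold limit, 0.96 at 10 reads and 1.05 with 1 region per locus. When the difference of the deposited log2 group means was taken in place of the authors' fold, the median was 1.54. The other loci had a median log2 fold of 1.09 at the stricter FDR and 0.92 at 10 reads, below the noncoding median each time. At the fold limit, which leaves out smaller folds in both sets, the other loci had a median of 1.14 as well. The slightly larger noncoding fold was thus not seen at that limit. The median log2 mean in knockdown was 4.77 at the stricter FDR, 4.02 at the fold limit, 4.86 at 10 reads, 4.29 by gene type and 4.30 with 1 region per locus, and that in control 3.12, 2.22, 3.55 and 2.77 under the first 4. Partner genes were listed for 34.8% of antisense or intronic loci at the stricter FDR and 30.4% at the fold limit. The share of protein-coding genes at these settings is not given here, so these values have no background beside them. Leaving out chromosome 7, or, chosen after seeing the data, microRNA host genes moved no value computed. The cause of these shifts was not tested.

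No paired analysis was possible because the lists hold group means only, and for the same reason no replicate was left out. A deposited group mean lay at the floor of 1 read in 14 increased and 5 decreased noncoding regions. Whether the floor enters their folds is unknown.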
